A study of Mus musculus with 6 samples.

Results

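The genes described here encode the enzymes that make, recycle and balance purine and pyrimidine nucleotides, together with cytosolic folate enzymes that supply carbon to them. Members were taken by name from a list of 39 genes, and 35 of these were found among the 18001 genes of the table (Nme1, Nme2, Aprt and Tk1 were not analysed here). The cells were NIH/3T3, an immortal mouse fibroblast line, and they received either siRNAs against Aldoa, described by the study as a pool (siAldoa, spelled siALDOA in the sample names), or non-targeting control siRNAs (siCtrl, spelled siCTR). RNA was taken 48 h later from 3 replicates of each group, and poly(A) RNA was sequenced. Aldoa encodes aldolase A, an enzyme of glycolysis, and the experiment asks which mRNA levels change when it is silenced. The siAldoa libraries all carry the same label for the siRNAs, so loss of Aldoa and other actions of these siRNAs cannot be told apart.

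Nucleotides are made from small precursors (de novo synthesis) or from recovered bases and nucleosides (salvage). Both routes draw on 5-phosphoribosyl-1-pyrophosphate (PRPP), an activated sugar that derives from glucose through the pentose phosphate pathway. The purine ring is built on PRPP step by step to inosine monophosphate (IMP), from which the routes to AMP and GMP branch, and folate derivatives donate carbons to the ring. The pyrimidine ring is built first and joined to PRPP afterwards. Ribonucleotide reductase turns ribonucleotides into the deoxynucleotides used for DNA. Proliferating fibroblasts draw on all of these routes when they copy their DNA and make ribosomal RNA.

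The values are CPM (reads of a gene scaled to the size of the library). Reads counted over the genes of the table came to between 3692341 and 3771129 per library. Aldoa was at 522, 536 and 545 CPM in the siCtrl libraries and at 62.9, 69.2 and 72.0 CPM in the siAldoa libraries, or 12.7% of the control mean. All 9 fibroblast markers examined were in the table, with a summed level between 13107 and 13644 CPM in siCtrl and between 10851 and 11523 CPM in siAldoa. Their changes went both ways, with 4 called lower (Col1a1, Col1a2, Vim and S100a4) and 4 higher (Fn1, Pdgfra, Pdgfrb and Thy1), named after their values were seen. Of the markers of other cell types, Epcam, Cd3e and Kdr were among those not in the table. The summed level of the 7 that were in it was between 16.1 and 17.8 CPM in siCtrl and between 5.76 and 9.18 CPM in siAldoa, with Krt18 at 0 reads in all siAldoa libraries. Replicate 3 stood further from replicates 1 and 2 than these did from one another in either group (chi-square per degree of freedom 1.97 to 3.03, against 1.12 and 1.11). Counting error alone gives values near 1, so replicates 1 and 2 differed by little more than that. The study describes all of them as biological replicates, and they were kept apart. Where replicates share a culture, p-values measure only the spread between these samples.

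Most members were lower after Aldoa silencing. With limma on log2(CPM + 1) and an adjusted p under 0.05, 20 of the 35 members were lower and 1, Impdh2, was higher. Over all genes tested the same rule called 10.0% lower and 10.4% higher, and among the 10140 genes within the members' range of mean CPM it called 15.1% lower and 15.4% higher. The log2 fold change was negative for 32 of the 35 members, with a median of -0.24 beside -0.0023 over all genes. In 23 members every siAldoa library lay below every siCtrl library, a pattern seen in 17.1% of all genes. In 2 members, Impdh2 and Ctps2, every siAldoa library lay above, as in 16.7% of all genes. The summed level of the 35 members was 4640, 4609 and 4568 CPM in the siCtrl libraries and 3946, 3880 and 3890 CPM in the siAldoa libraries, which is 84.8% of the control mean. In a bulk sample, fewer cells that express a gene and less of its RNA per cell cannot be told apart.

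**Figure D1:**
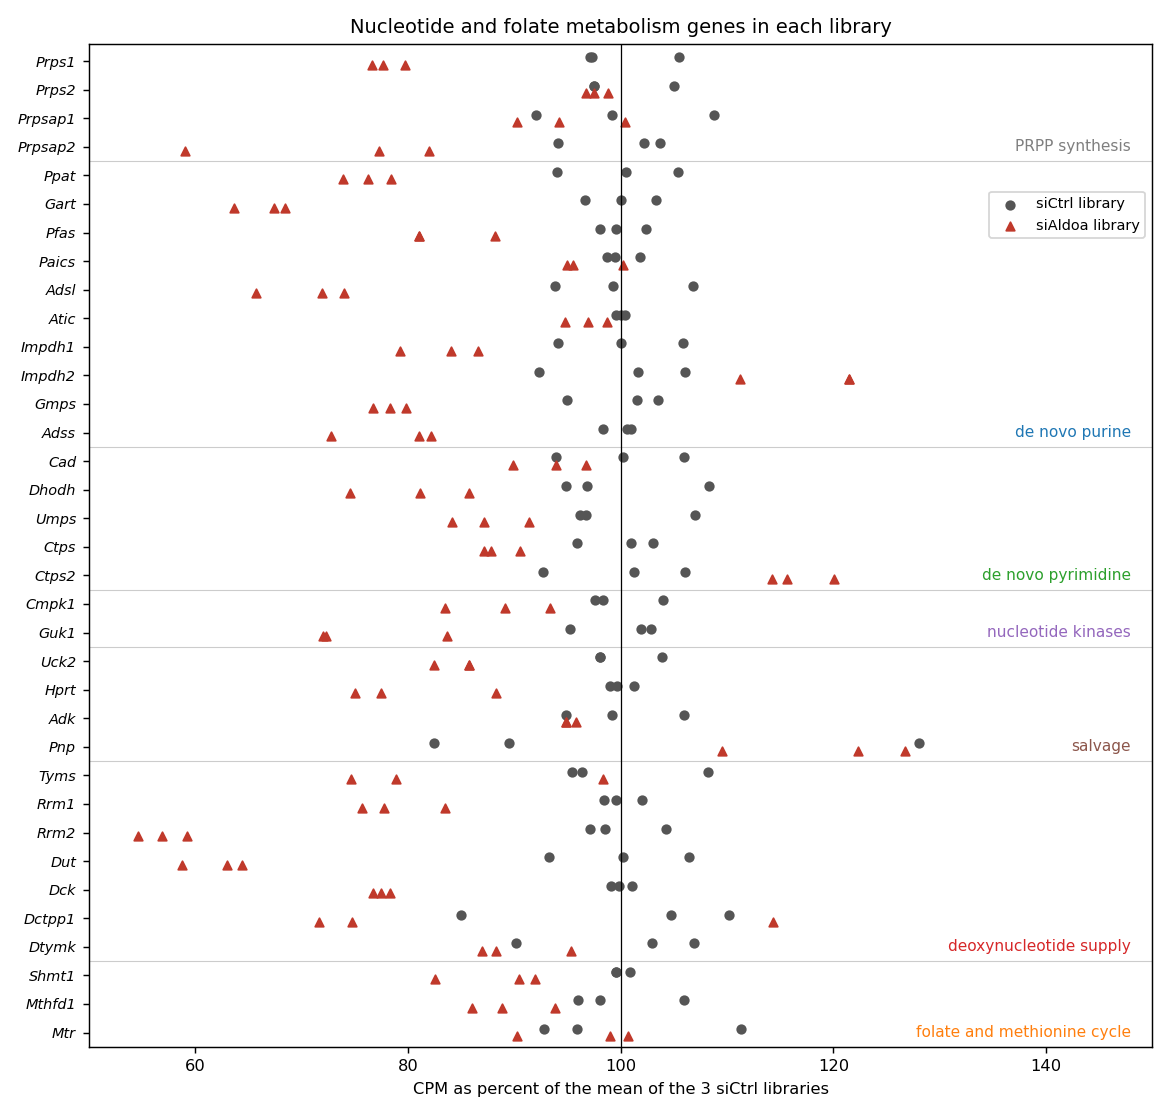
Each row is a member gene, and each point is its CPM in 1 library as a percent of the mean of the 3 siCtrl libraries (grey circles, siCtrl; red triangles, siAldoa), with genes grouped by role. The siAldoa points lie left of all siCtrl points in 23 genes and right of them in Impdh2 and Ctps2, and the siAldoa points of Rrm2 are the farthest to the left.

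**Figure D2:**
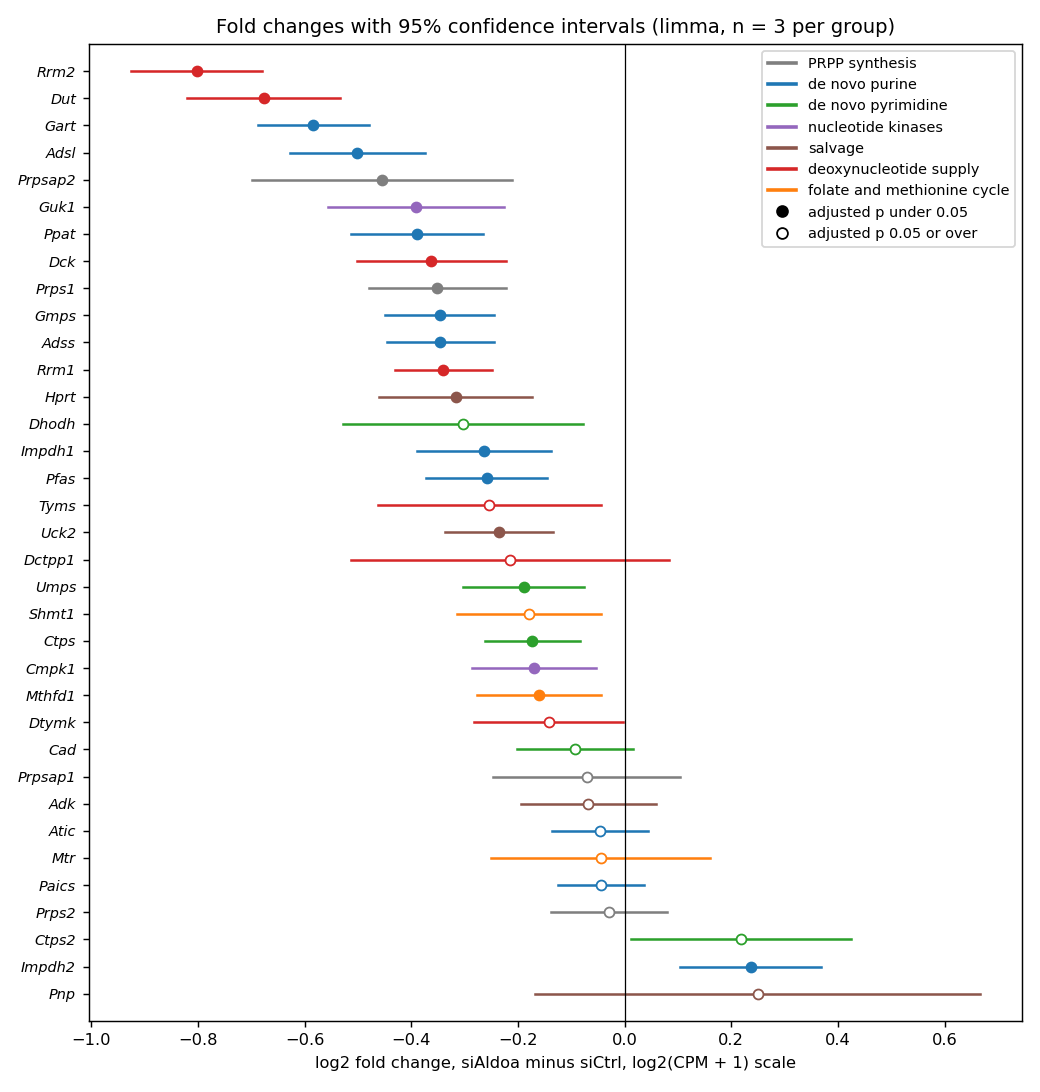
Points are log2 fold changes (siAldoa minus siCtrl, on the log2(CPM + 1) scale, n = 3 per group) and lines are 95% confidence intervals from limma, coloured by role, with filled points for an adjusted p under 0.05. The members range from -0.80 (Rrm2) to 0.25 (Pnp), and the interval of Pnp is the widest because few reads were counted for it.

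PRPP synthesis was split between its genes. Prps1 and Prps2 encode the PRPP synthetases, and Prpsap1 and Prpsap2 encode proteins that associate with them. Prps1 fell from 97.8, 106 and 97.6 CPM in siCtrl to 80.1, 78.0 and 77 CPM in siAldoa, a log2 fold change of -0.35 (SE 0.062, limma adjusted p = 0.00019). Its groups did not overlap. Prps2 was at 141, 152 and 141 CPM in siCtrl and at 143, 141 and 140 CPM in siAldoa, so its groups overlapped. Its log2 fold change was -0.03, with a 95% interval from -0.14 to 0.08 and a limma adjusted p of 0.76. Prpsap2 fell from 35.3, 35.8 and 32.5 CPM to 28.3, 26.7 and 20.4 CPM (log2 fold change -0.46, SE 0.117, limma adjusted p = 0.0066). The siAldoa library of replicate 3 was the lowest, and the call was lost without it (log2 fold change -0.32, limma adjusted p = 0.064) and without siCtrl replicate 2 (adjusted p = 0.056). Prpsap1 was at 50.3 ± 4.22 CPM (SD, n = 3) in siCtrl and 47.8 ± 2.54 CPM in siAldoa, and its groups overlapped.

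De novo purine synthesis held the most calls, with 7 of 10 genes lower, 1 higher and a median log2 fold change of -0.30. The summed level of the 10 genes was 1936, 1899 and 1894 CPM in siCtrl and 1648, 1612 and 1610 CPM in siAldoa (85.0% of the control mean). On the way from PRPP to IMP, Ppat, which encodes the amidotransferase of the committed step, fell from 116, 124 and 130 CPM to 91.2, 96.7 and 94.0 CPM (log2 fold change -0.39, SE 0.060, limma adjusted p = 3.2e-05). Gart, whose product catalyses 3 reactions of the route, fell from 216, 209 and 202 CPM to 133, 141 and 143 CPM. Its log2 fold change was -0.58 (SE 0.050, limma adjusted p = 8.3e-09), and every siAldoa library was below every siCtrl library. Gart shares 1014 exonic bases, 19.7% of its exonic length, with Gm15964 on the opposite strand. Gm15964 was counted at 1.53 CPM in siCtrl, and to which gene reads from these bases were assigned is uncertain. Pfas, the gene of the following amidotransferase, fell by 0.26 on the log2 scale (limma adjusted p = 0.0012).

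The next gene in the route did not follow. Paics, the gene of a bifunctional enzyme that carboxylates the ring and adds aspartate, was at 378, 387 and 375 CPM in siCtrl and at 381, 363 and 361 CPM in siAldoa. Its groups overlapped, and its log2 fold change was -0.04 with a 95% interval from -0.13 to 0.04 (limma adjusted p = 0.49). Adsl, the gene of the lyase that acts both before IMP and on the branch to AMP, fell from 156, 145 and 137 CPM to 105, 95.9 and 108 CPM (log2 fold change -0.50, SE 0.062, limma adjusted p = 1.7e-06). Atic, whose product closes the ring to IMP, was at 230, 231 and 232 CPM in siCtrl and at 219, 228 and 224 CPM in siAldoa. These groups did not overlap, but the difference was small, with a log2 fold change of -0.05, a 95% interval from -0.14 to 0.04 and a limma adjusted p of 0.53. Ppat and Paics lie head to head on chromosome 5 of GRCm38 (Ppat from 76913249 to 76951578 on the minus strand, Paics from 76951307 to 76967509 on the plus strand) and share 272 exonic bases on opposite strands, which is 6.15% of the exonic length of Ppat and 8.67% of that of Paics. The log2 ratio of Ppat to Paics was -1.69, -1.63 and -1.53 in the siCtrl libraries and -2.05, -1.90 and -1.93 in the siAldoa libraries. Whether strand was used in counting is not given in the sources used here, so reads from the shared bases could be assigned to either gene.

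After IMP, both branches moved. Adss, the gene of the enzyme that starts the AMP branch, fell from 268, 261 and 267 CPM to 218, 215 and 193 CPM (log2 fold change -0.35, SE 0.049, limma adjusted p = 1.1e-05). On the GMP branch, Gmps, the gene of GMP synthetase, fell from 205, 188 and 201 CPM to 158, 155 and 152 CPM (log2 fold change -0.35, SE 0.050, limma adjusted p = 1.3e-05). Neither gene's groups overlapped. IMP dehydrogenase, which is regarded as rate-limiting for GMP, is encoded by Impdh1 and Impdh2, and these moved in opposite directions. Impdh1 fell from 119, 126 and 112 CPM to 100, 94.3 and 103 CPM (log2 fold change -0.26, SE 0.061, limma adjusted p = 0.0026). Impdh2 rose from 103, 89.7 and 98.7 CPM to 118, 108 and 118 CPM (log2 fold change 0.24, SE 0.064, limma adjusted p = 0.0092). The call of Impdh2 was lost without siCtrl replicate 2 (log2 fold change 0.18, limma adjusted p = 0.08), without siAldoa replicate 1 (adjusted p = 0.069) and without siAldoa replicate 3 (adjusted p = 0.069), while its direction was kept.

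**Figure D3:**
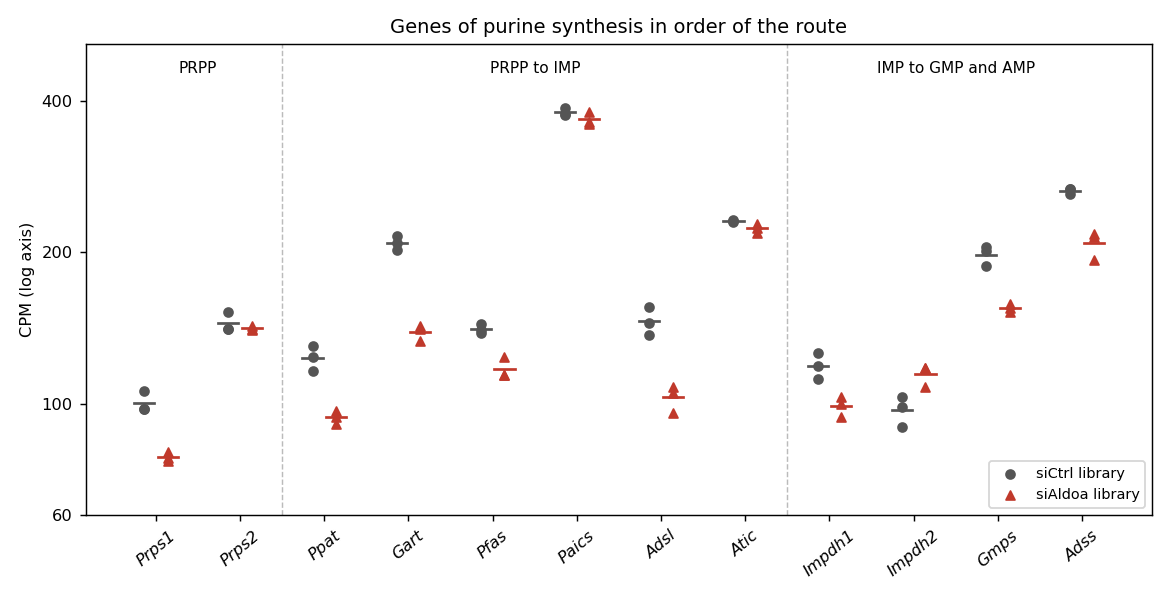
CPM on a log axis for genes of PRPP and purine synthesis, in the order in which their products act, with a point for each library (grey circles, siCtrl; red triangles, siAldoa) and a short line at each group mean. The siAldoa points are below the siCtrl points for Prps1, Ppat, Gart, Pfas, Adsl, Impdh1, Gmps and Adss, close to or among them for Prps2, Paics and Atic, and above them for Impdh2.

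Reads of Impdh2 are uncertain because of a near-identical copy. Gm15210, a processed pseudogene annotated as a copy of Impdh2, was 99.741% identical to it over 1545 bases and was counted at 328 CPM in siCtrl and 372 CPM in siAldoa, more than Impdh2 itself. It was called higher as well (log2 fold change 0.18, limma adjusted p = 0.0022). With the reads of both summed, the values were 428, 425 and 423 CPM in siCtrl and 474, 490 and 497 CPM in siAldoa, and the limma adjusted p was 0.00036 at a log2 fold change of 0.19. The same sum was made for the other members with pseudogene copies in the table, Ctps (copies Gm16465 and Gm18699), Cmpk1 (Gm5867), Prpsap2 (Gm13651), Gmps (Gm20656 and Gm20657) and Rrm2 (Gm11485 and a copy without a name in the table). Ctps, Prpsap2, Gmps and Rrm2 remained lower with their copies added (log2 fold changes of -0.21, -0.47, -0.35 and -0.79). Cmpk1 did not keep its call, with a log2 fold change of -0.13 and a limma adjusted p of 0.073. This sum was chosen after seeing the data.

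Paics, Atic and Impdh2 were picked by their calls, and the motif given here is among 6 that were searched. Each of these 3 genes also held CCAAT, another of the motifs. The hexamer CACGTG, known as the E-box bound by MYC and related factors, was present in their windows from 250 bases before to 50 bases after the start of the transcript (RefSeq, GRCm38.p6). It is palindromic, so both strands give the same match. The 30 bases around each match are given 5′ to 3′ on the strand of the gene, with the hexamer in capitals, because these 3 genes are the members of the route that were not called lower.
Paics, chr5:76951087-76951116, plus strand: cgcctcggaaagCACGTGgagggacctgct
Atic, chr1:71557137-71557166, plus strand: ggacctcggggtCACGTGgggtcgacacgc
Impdh2, chr9:108560314-108560343, plus strand: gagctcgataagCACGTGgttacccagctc
The hexamer starts 203 bases before the start of Paics, 7 before that of Atic and 110 before that of Impdh2 by the RefSeq starts. The stretch shown for Paics lies inside the first annotated exon of Ppat, on the opposite strand, and that for Impdh2 lies downstream of the GENCODE start of its gene at position 108560286. RefSeq windows were matched for 33 of the 35 members. The other members with the hexamer were Tyms and Dtymk, so it was found in 0 of the 19 members called lower that had a window and in 5 of the 14 others, beside 8.09% of all 27025 genes with a window. Ppat is among the 19, because the stretch inside its first exon lies beyond the 50 bases after its start. This split depends on the calls, as Tyms was called lower without siAldoa replicate 1 (limma adjusted p = 0.022). Dtymk was called lower without siCtrl replicate 1 (adjusted p = 0.045). A match is a description of the sequence and does not show that a factor binds there.

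De novo pyrimidine synthesis held fewer calls. Of 5 genes, 2 were called lower and none higher, and the median log2 fold change was -0.17. Cad, the gene of the trifunctional enzyme of the first steps, was at 185, 175 and 164 CPM in siCtrl and at 164, 157 and 169 CPM in siAldoa, and its groups overlapped (log2 fold change -0.09, 95% interval from -0.20 to 0.02, limma adjusted p = 0.25). Dhodh, the gene of the mitochondrial dehydrogenase of the route, had siAldoa libraries (24.8, 26.2 and 22.8 CPM) that all lay below the siCtrl libraries (33.1, 29.0 and 29.6 CPM). Its log2 fold change of -0.30 missed the threshold (limma adjusted p = 0.052), with 87 to 121 reads per library behind it. Umps, whose product makes UMP, fell from 178, 161 and 160 CPM to 145, 152 and 140 CPM (log2 fold change -0.19, limma adjusted p = 0.015). That call was lost without siCtrl replicate 1 (log2 fold change -0.14, limma adjusted p = 0.12), without siAldoa replicate 1 (adjusted p = 0.069) and without siAldoa replicate 3 (adjusted p = 0.099).

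CTP synthase, which converts UTP to CTP, is encoded by Ctps and Ctps2. Ctps fell from 299, 305 and 284 CPM to 268, 260 and 258 CPM (log2 fold change -0.17, SE 0.043, limma adjusted p = 0.0049). Ctps2, counted at much lower values, was at 29.6, 27.1 and 31.0 CPM in siCtrl and at 35.1, 33.4 and 33.8 CPM in siAldoa. All siAldoa libraries were above the siCtrl libraries, but the log2 fold change of 0.22 did not pass the threshold (limma adjusted p = 0.14). The summed level of the 5 pyrimidine genes was 724, 698 and 669 CPM in siCtrl and 638, 629 and 623 CPM in siAldoa, or 90.4% of the control mean, which is a smaller difference than in the purine genes. The difference between these classes was not tested.

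The nucleotide kinases Cmpk1 and Guk1 were both called lower. Guk1, which phosphorylates GMP, fell from 66.0, 65.4 and 61.1 CPM to 46.4, 46.2 and 53.7 CPM (log2 fold change -0.39, SE 0.080, limma adjusted p = 0.00086). Cmpk1, which phosphorylates UMP and CMP, fell from 139, 138 and 147 CPM to 126, 132 and 118 CPM (log2 fold change -0.17, SE 0.056, limma adjusted p = 0.033). The groups of both genes were apart. Beside the loss with its pseudogene copy, the call of Cmpk1 was lost without siCtrl replicate 1, 2 or 3 (limma adjusted p = 0.073, 0.065 and 0.15) and without siAldoa replicate 1 or 3 (adjusted p = 0.089 and 0.16).

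Of the 4 salvage genes in the table, 2 fell. Hprt, which recovers hypoxanthine and guanine with PRPP, fell from 89.8, 88.4 and 87.8 CPM to 78.3, 68.7 and 66.5 CPM (log2 fold change -0.32, SE 0.069, limma adjusted p = 0.0017). Uck2, which phosphorylates uridine and cytidine, fell from 183, 183 and 194 CPM to 160, 160 and 154 CPM (log2 fold change -0.24, SE 0.049, limma adjusted p = 0.001). Neither gene's groups overlapped. Adk, the gene of adenosine kinase, was at 97.1 ± 5.26 CPM (SD, n = 3) in siCtrl and 92.5 ± 0.53 CPM in siAldoa, with overlapping groups. Pnp, the gene of purine nucleoside phosphorylase, was at 6.3, 6.84 and 9.79 CPM in siCtrl and at 8.37, 9.35 and 9.69 CPM in siAldoa. Its groups overlapped, it had 23 to 37 reads per library, and 95.7% of its exonic bases are shared with another gene entry of the same name, so its level is uncertain.

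Deoxynucleotide supply held the genes that fell most. Of its 7 genes, 4 were called lower, and the median log2 fold change was -0.34. Their summed level was 816, 816 and 832 CPM in siCtrl and 617, 600 and 634 CPM in siAldoa, which is 75.1% of the control mean and the lowest share among the 7 classes. Rrm2, the small subunit of ribonucleotide reductase whose level rises in S phase, fell from 137, 135 and 145 CPM to 79.1, 82.3 and 75.9 CPM (57.0% of the control mean). Its log2 fold change was -0.80 (SE 0.059, limma adjusted p = 7.1e-10), the lowest of all members. Rrm1, the large subunit, fell from 341, 333 and 329 CPM to 260, 253 and 279 CPM (log2 fold change -0.34, SE 0.044, limma adjusted p = 3.3e-06). Both subunits were lower in every siAldoa library than in every siCtrl library.

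Dut, the enzyme that removes dUTP and yields the precursor of dTMP, fell from 97.0, 90.3 and 103 CPM to 56.9, 62.3 and 61.0 CPM (log2 fold change -0.68, SE 0.070, limma adjusted p = 1.3e-07). Dck, the kinase that salvages deoxycytidine, fell from 76.4, 75.5 and 74.9 CPM to 58.6, 58.0 and 59.2 CPM (log2 fold change -0.36, SE 0.068, limma adjusted p = 0.00034), and its libraries were nearly equal within each group. The other 3 genes had overlapping groups. Tyms, thymidylate synthase, was at 42.7, 48.4 and 43.1 CPM in siCtrl and at 44.0, 33.4 and 35.3 CPM in siAldoa (log2 fold change -0.25, limma adjusted p = 0.081). The siAldoa library of replicate 1 was the only one within the siCtrl range, and without it the log2 fold change was -0.37 (limma adjusted p = 0.022). Stretches of at least 200 bases in transcripts of Tyms and Rrm1 matched 51 and 5 other genes of the table at 90% identity or more, so some of their reads are uncertain. Dtymk, thymidylate kinase, had a log2 fold change of -0.14 (limma adjusted p = 0.15), which became -0.21 without siCtrl replicate 1 (adjusted p = 0.045). Dctpp1, a dCTP pyrophosphatase, was at 30.7, 24.9 and 32.3 CPM in siCtrl and at 21, 21.9 and 33.5 CPM in siAldoa, where replicate 3 stood apart from the other libraries.

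The sequences just before the starts of Rrm1 and Rrm2 are given because the products act as a complex and their log2 fold changes were unequal. Capitals mark CCAAT, the letters known as the NF-Y box, and CGGAAG, the core bound by ETS factors, on either strand (5′ to 3′, GRCm38.p6).
Rrm1, chr7:102441575-102441694, plus strand: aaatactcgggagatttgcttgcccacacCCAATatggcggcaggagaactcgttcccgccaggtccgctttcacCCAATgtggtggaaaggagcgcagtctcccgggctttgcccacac
Rrm2, chr12:24708134-24708240, plus strand: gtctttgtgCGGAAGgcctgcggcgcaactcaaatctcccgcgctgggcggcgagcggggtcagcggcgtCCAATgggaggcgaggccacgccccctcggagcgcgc
Tyms, chr5:30073669-30073698, minus strand, CACGTG in capitals: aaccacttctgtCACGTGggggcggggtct
Dtymk, chr1:93802065-93802094, minus strand, CACGTG in capitals: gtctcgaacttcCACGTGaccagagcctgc
Rrm1 holds CCAAT at 91 and 45 bases before its start, and Rrm2 holds it once, at 50 bases, with CGGAAG at 111 bases. CCAAT was found in 8 of 19 members called lower and in 10 of 14 others, beside 41.1% of all genes. CGGAAG was found in 8 of 19 and in 3 of 14, beside 18.8% of all genes. The E2F-type letters TTTCGCGC, TTTGGCGC or TTTCCCGC were found in 2 of the 33 members with a window (Ppat and Prps2), beside 2.12% of all genes. The 6 motifs were searched on both strands, and the shares were not tested.

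Genes of DNA replication moved alongside. Of 17 such genes in the table, 14 were called lower, with a median log2 fold change of -0.44 and a summed level of 73.0% of the control mean. Of 10 genes of mitosis, 2 were called lower (Cdk1, log2 fold change -0.18, and Cdc20, -0.20, named after their values were seen), the median was -0.05 and the summed level was 96.0% of the control mean. The deoxynucleotide genes, at 75.1%, were close to the replication genes, and the other 6 classes of members lay at 84.9% to 90.4%. What part a change in the share of cells in S phase had in the members' values was not tested.

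Among the 3 cytosolic folate genes, 1 was called lower. Mthfd1, a trifunctional enzyme that interconverts one-carbon folates, was at 138, 149 and 135 CPM in siCtrl and at 121, 125 and 132 CPM in siAldoa. It was called lower (log2 fold change -0.16, SE 0.057, limma adjusted p = 0.047), but the call was lost without siCtrl replicate 1, 2 or 3 (adjusted p = 0.087, 0.22 and 0.056) and without siAldoa replicate 1 or 2 (adjusted p = 0.19 and 0.13). Shmt1, the cytosolic serine hydroxymethyltransferase that loads folate with carbon from serine, had siAldoa libraries (71.5, 78.3 and 79.6 CPM) below the siCtrl libraries (87.4, 86.2 and 86.2 CPM). Its log2 fold change of -0.18 missed the threshold (limma adjusted p = 0.055). Mtr, methionine synthase, was at 35.7 ± 3.52 CPM (SD, n = 3) in siCtrl and 34.5 ± 1.98 CPM in siAldoa, and its groups overlapped.

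Ratios within a library depend on library scaling only through the 1 CPM added to each value. They were compared for 5 pairs of genes whose products are isoenzymes or subunits of the same enzyme. The log2 ratio of Prps1 to Prps2 was -0.52, -0.52 and -0.52 in the siCtrl libraries and -0.83, -0.85 and -0.85 in the siAldoa libraries, a difference of -0.32. This was the pair with the smallest spread. Counting error alone is larger than that at 292 to 386 reads of Prps1 per library. The spread of 3 libraries therefore does not show how constant the ratio is. The log2 ratio of Impdh1 to Impdh2 was 0.21, 0.48 and 0.19 in siCtrl and -0.23, -0.19 and -0.19 in siAldoa, a difference of -0.50. Reads counted for the Impdh2 pseudogene are not part of this ratio, and with them Impdh2 was above Impdh1 in every library. The log2 ratio of Ctps to Ctps2 was 3.30 ± 0.145 (SD, n = 3) in siCtrl and 2.91 ± 0.016 in siAldoa, a difference of -0.39. For the subunits Rrm1 and Rrm2 the ratio was 1.31, 1.30 and 1.18 in siCtrl and 1.71, 1.61 and 1.86 in siAldoa, a difference of 0.46 in favour of the large subunit. Shmt1 against Shmt2, the mitochondrial isoenzyme, gave -2.14 ± 0.039 in siCtrl and -1.80 ± 0.065 in siAldoa, a difference of 0.34. None of the 5 pairs overlapped between the groups, and each had p = 0.1 in a two-sided exact permutation test, also after Benjamini-Hochberg adjustment over the 5 pairs, which is the smallest p that 3 libraries against 3 allow. The first gene of each pair was by itself lower in every siAldoa library, so the ratios are not independent of the single-gene results. How many other pairs of genes would be apart was not examined.

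**Figure D4:**
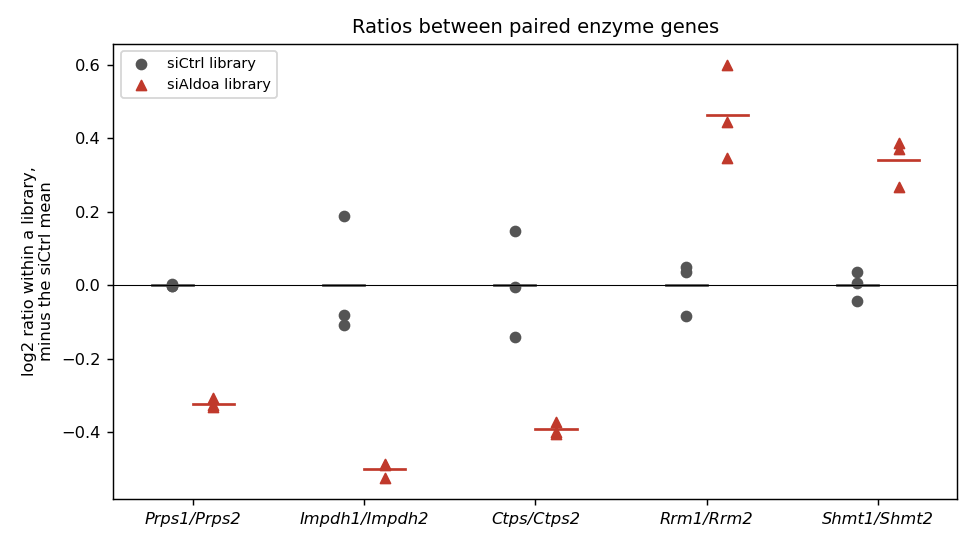
Log2 ratio of the first gene to the second in each library (CPM + 1), shown relative to the siCtrl mean of that pair, with short lines at the group means (grey circles, siCtrl; red triangles, siAldoa). The siAldoa ratios lie below all siCtrl ratios for Prps1/Prps2, Impdh1/Impdh2 and Ctps/Ctps2, and above them for Rrm1/Rrm2 and Shmt1/Shmt2.

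Levels between genes can be compared only per length. Per kilobase of exon in the annotation (GENCODE M21), Paics was the highest member in siCtrl with 121 ± 1.99 CPM per kb (SD, n = 3), followed by Ctps with 89.3 ± 3.26, Hprt with 68.8 ± 0.796 and Adss with 58.6 ± 0.836. These 4 neighbours differed by more than their spread, whereas Prps1 (50.4 ± 2.40), Rrm2 (50.2 ± 1.91) and Umps (47.7 ± 2.90) did not. By this measure the lowest were Mtr with 4.18 ± 0.415, Dhodh with 4.83 ± 0.350, Ctps2 with 6.19 ± 0.419 and Tyms with 7.35 ± 0.523 CPM per kb. The lengths are those of the annotated exons of each gene, and which of these exons the cells used was not examined. How many reads across exon junctions were lost in the alignment to the genome with Bowtie2 was not examined either. The order of members by level therefore depends on the annotation and on the alignment. Reads counted for pseudogene copies are not part of these levels, and the order at the top depends on them. With copies added, Impdh2 (423 to 428 CPM over 3.08 kb of its own exons) and Ctps (426 to 458 CPM over 3.32 kb) lay above Paics (375 to 387 CPM over 3.14 kb) in siCtrl.

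Other genes of these pathways moved in both directions. Of 72 further genes of nucleotide and folate metabolism, 65 were in the table, with a median log2 fold change of -0.06. Of the 65, 14 were called lower and 6 higher, which is 21.5% and 9.23%, beside 10.0% and 10.4% of all genes. The share called higher was thus close to that of all genes. Without siCtrl replicate 2, or without siAldoa replicate 2, 8 of the 65 were called lower. By class, the summed level was 75.9% of the control mean in the 10 other salvage genes and 82.4% in the 6 other genes of deoxynucleotide control, and it was 81.7% to 90.8% in the transport, folate and kinase genes. Sums follow the genes with most reads. By sign, 5 other salvage genes were lower and 5 higher (median log2 fold change 0.06), as in the kinases (0.0051). In the folate genes 9 were lower and 10 higher (0.03). Medians were -0.08 for transport and -0.17 for deoxynucleotide control. Per kb of exon, Mtap, of the salvage genes, went from 170 to 114 CPM and Slc29a1, of the transporters, from 15.3 to 9.76. Among the lowest of those called with groups apart were Tymp (thymidine phosphorylase, 5.75, 7.66 and 6.09 CPM against 3.24, 3.21 and 3.4 CPM, log2 fold change -0.80), Slc29a1 (a nucleoside transporter, -0.63), Mtap (which recovers adenine from methylthioadenosine, -0.57) and Shmt2 (-0.52). Tymp was not called without siCtrl replicate 2 (limma adjusted p = 0.074). Shmt2 fell from 401, 374 and 382 CPM to 265, 267 and 274 CPM (limma adjusted p = 2.1e-09), and its log2 fold change of -0.52 stood beside -0.18 for its cytosolic counterpart Shmt1.

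Of the called genes with groups apart, the highest were Adssl1 (the muscle form of Adss, log2 fold change 0.95), Xdh (0.80), Uckl1 (a uridine kinase-like gene, 0.79), Uprt (named for uracil phosphoribosyltransferase, 0.59) and Ampd2 (AMP deaminase, 0.25). Adssl1 was at 1.26 ± 0.146 CPM (SD, n = 3) in siCtrl and 3.37 ± 0.499 CPM in siAldoa, far below Adss. Xdh, the gene of xanthine dehydrogenase, which makes uric acid at the end of purine breakdown, rose from 106, 97.7 and 110 CPM to 185, 167 and 197 CPM (limma adjusted p = 1.4e-09). The call of Ampd2 was lost without siCtrl replicate 3 (adjusted p = 0.082) and without siAldoa replicate 3 (adjusted p = 0.087). The 15 genes of nucleotide breakdown summed to 533, 520 and 507 CPM in siCtrl and to 611, 565 and 615 CPM in siAldoa (115% of the control mean), and 3 of them were called higher (Xdh, Ampd2 and Ampd3) and 1 lower (Nt5c3, named with Ampd3 after their values were seen). Ampd3 had a log2 fold change of 0.80 at 2.88 ± 1.12 CPM in siCtrl and 5.75 ± 1.95 CPM in siAldoa, and its groups overlapped. This was the only one of the 13 classes of nucleotide and folate genes whose summed level was higher in siAldoa, and without Xdh the other 14 genes summed to 416 ± 15.5 CPM (SD, n = 3) in siCtrl and 414 ± 14.7 CPM in siAldoa, with overlapping groups.

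**Figure D5:**
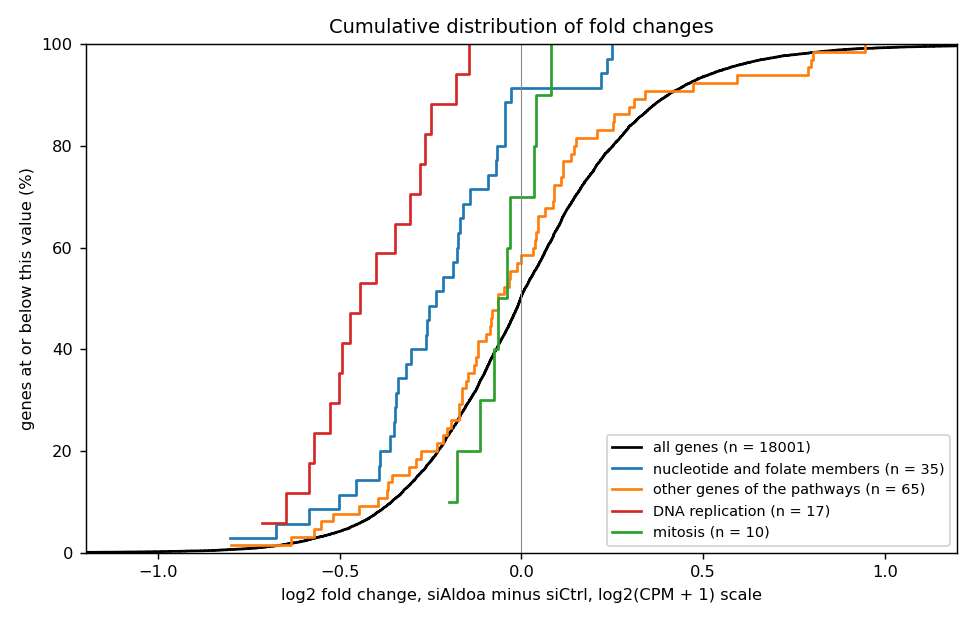
Cumulative share of genes (%) by log2 fold change (siAldoa minus siCtrl, log2(CPM + 1) scale), for all genes, the 35 members, the 65 other pathway genes and the DNA replication and mitosis genes. The members' line lies left of that of all genes (medians -0.24 and -0.0023), the DNA replication line farther left (-0.44), and the other pathway genes and the mitosis genes near all genes (-0.06 and -0.05).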

How the data were processed

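Poly(A) RNA of NIH/3T3 cells, 3 siCtrl and 3 siAldoa libraries, was sequenced with a directional kit. Alignment was to mm10 with Bowtie2 (version 2.2.7, per the submitters' processing notes), after which the authors drew the same number of reads from each sample, counted per gene and deposited CPM relative to an effective library size. The annotation release, the use of strand in counting and the handling of reads with several matches are not given in the sources used here. A filter at 12 reads is described, but 1834 genes of the table had fewer. External RNA standards were added at different steps in replicate 1 and in replicates 2 and 3, and were not used here. A second table with the authors' fold changes and p-values was not used.

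Reads were recovered from the deposited CPM, since 100% of values were whole multiples of what 1 read was worth in the library (within 0.01 reads), with totals of 3692341 to 3771129 reads. Members had 23 to 1418 reads per library. No molecular identifiers were used, and statements on depth cover counting error alone. The main comparison used limma (version 3.58.1) in R (version 4.3.3), two-sided, on log2(CPM + 1) and with a trend of variance on mean. P-values were adjusted after Benjamini and Hochberg across the 18001 genes, and the threshold was 0.05. On this scale the change of a gene with few reads is understated. edgeR's quasi-likelihood test (version 4.0.16) on the recovered reads called 1866 genes lower and 1920 higher, against 1809 and 1867 with limma. DESeq2 (version 1.42.0), another pseudocount (0.1), a filter on low values, other scalings, no trend, the replicate block and leaving out libraries were the other alternatives, and averaging replicates 1 and 2 and adding pseudogene reads were chosen after seeing the data. The tests were tried on simulated data.

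The members and all gene lists were chosen with earlier results of these data known. All members in the table could be named, and of the other pathway genes the 5 lowest and the 5 highest with an adjusted p under 0.05 and groups that did not overlap, besides Shmt2, Aldoa and genes that may share reads with a member; 1 gene covered by this rule is not reported here. Positions and exon lengths are from GENCODE M21 (GRCm38, the same assembly as mm10), in which 17932 of the 18001 identifiers were found, and promoter windows from RefSeq (GRCm38.p6). Copies were pseudogenes of the table with a transcript at least 90% identical to a member over 200 bases (blastn, version 2.17.0). Tyms, with 51 such matches in the table, mostly to genes that are no pseudogenes, was left out of the sums by a limit of 5 matches.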

Additional observations from a re-analysis of the deposited data

How the results depend on the processing

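No called result changed direction in any of the 20 alternatives. Of the members that were not called, Prps2, Prpsap1, Paics and Mtr had log2 fold changes on both sides of 0 (up to 0.0066, 0.03, 0.0047 and 0.03). Of the 21 members called, 9 kept the call in every alternative (Prps1, Ppat, Gart, Adsl, Gmps, Rrm1, Rrm2, Dut and Dck), and Adss lost it only without the mean-variance trend (limma adjusted p = 0.051). The most easily lost were Mthfd1 (16 of 20 alternatives), Cmpk1 (15), Umps (9), Impdh2 (7), Prpsap2 (6) and Ctps (5). Dhodh and Shmt1 were called with the filter on low values (limma adjusted p = 0.04 and 0.043) and with quantile normalization (0.04 and 0.048). Without the trend 9 members were lower and 0 higher (limma), 26 of the 35 having an unadjusted p under 0.05 in the fit with the trend, and edgeR calling 20 lower and 1 higher. Without the trend the counts were 616 lower and 824 higher for all genes and 7 lower for the other pathway genes, and DESeq2 gave 1117, 1066 and 8. Quantile normalization moved the median of the pyrimidine genes to -0.12, that of the deoxynucleotide genes to -0.29 and the Prps1/Prps2 difference to -0.35. Library scaling moved the median of all genes to 0.02 at most.

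With libraries left out (1 library, or replicate 1, 2 or 3 of both groups), all genes gave 520 to 1371 lower and 494 to 1464 higher, members 11 to 19 lower and 0 to 1 higher, and other pathway genes 5 to 12 lower and 1 to 6 higher. The fewest lower members (11) came without replicate 2 of both groups. Fewer samples enter each of these fits. Class medians ranged from -0.25 to -0.15 for PRPP synthesis, from -0.20 to -0.14 for the pyrimidine genes, from -0.18 to -0.11 for salvage and from -0.38 to -0.31 for deoxynucleotide supply.

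The groups share replicate numbers. Across 8271 genes, the correlation of the deviations from the group mean was 0.0397, 0.0396 and 0.207 between libraries with number 1, 2 and 3. Of the siCtrl libraries, siCtrl 2 correlated best with siAldoa 1 (0.125), so numbers 1 and 2 were not taken to pair the samples. Between number 3 and the other numbers the correlations were negative (-0.154 to -0.0795). The libraries with number 3 thus resembled each other across the groups, which the main fit did not model. With the replicate block, 18 members were lower and 1 higher (all genes 1559 and 1611), and Cmpk1 (limma adjusted p = 0.072) and Mthfd1 (0.079) lost their calls. With replicates 1 and 2 of each group averaged, 19 members were lower and 1 higher (all genes 1510 and 1579). Depth limits Pnp, Prpsap2, Dctpp1 and Dhodh most, with as few as 23, 78, 78 and 87 reads in a library.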
